A study of Bos taurus with 20 samples.

Results

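Triacylglycerol, the storage fat of adipocytes, is assembled by a short series of enzymes, and 10 of their genes were followed here in bovine mesenchymal stem/stromal cell (MSC) clones that differ in the ability to become adipocytes. The genes were GPAM, AGPAT1, AGPAT2, AGPAT3, AGPAT4, AGPAT5, LPIN1, LPIN2, DGAT1 and DGAT2. They were chosen by symbol, as members of the glycerol-phosphate pathway, from the 33063 named genes of the count table, and all 10 were found there. Of these, 9 passed the filter on low counts and were tested, while DGAT2 did not pass it.

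In this pathway a glycerol-3-phosphate acyltransferase such as GPAM attaches the first fatty acid, and enzymes of the AGPAT family attach the next one to give phosphatidic acid. Lipins remove the phosphate to give diacylglycerol, and DGAT enzymes attach the last fatty acid. The pathway becomes highly active when pre-adipocytes fill with lipid, and phosphatidic acid and diacylglycerol are also precursors of membrane phospholipids, so proliferating cells use part of it as well.

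The libraries came from MSCs of visceral fat, from the inguinal or perirenal region, of Holstein Friesian x Aberdeen Angus calves aged 1 to 6 months. Single MSCs were sorted and grown into clones in medium with serum and basic fibroblast growth factor, and a portion of each clone was put through adipogenic differentiation to score its capacity. RNA was taken from cells that had not been differentiated. The 10 adipogenic (A) clones were those with the highest differentiation capacity, and the 10 non-adipogenic (N) clones, which formed no adipocytes, were taken in the same number from each animal. A single clone of each type came from animal 17 and from animal 20, and 4 of each type came from animal 22 and from animal 23. Clones are named by animal and clone number, such as 22-9. Each clone descends from 1 cell, with 1 library per clone, so p-values measure the spread between clones of these 4 animals. In such bulk RNA, fewer cells of a type and less RNA per cell cannot be told apart.

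Library totals over named genes lay between 14908802 and 43111345 counts for N clones and between 14615493 and 29185355 for A clones. Markers of MSCs were high in nearly all clones, with ITGB1 between 1584 and 3718 CPM (counts scaled to the size of the library), but NT5E and THY1 were at only 0.508 and 0.395 CPM in N clone 22-5. The adipocyte hormones ADIPOQ and LEP did not exceed 1.52 and 0.204 CPM in any clone, but other genes of the list of 11 mature adipocyte markers were higher, up to 90.6 CPM for LPL. The sum of this list was 34.8 to 149 CPM in N clones and 41.0 to 163 CPM in A clones, and 2 of its 7 tested genes rose in A clones. The summed level of 6 mesothelial markers reached 6935 CPM in N clone 22-5 and 4706 CPM in N clone 22-9. Other N clones lay at 8.60 to 273 CPM and A clones at 7.22 to 932 CPM, and 1 of 5 tested markers fell in A clones. Results of the A against N test are given with and without N clones 22-5 and 22-9 where they rest on them. Of 7 proliferation markers, 4 fell in A clones, and their summed level was 107 to 528 CPM in N clones and 25.2 to 315 CPM in A clones. Of 5 tested smooth muscle and pericyte markers, 2 rose in A clones, and the sum of all 6 listed was 129 to 6212 CPM in N clones (median 1701) and 932 to 9038 CPM in A clones (median 3590). Over all 12900 genes tested, 10.3% rose and 10.3% fell in A clones by the same edgeR test, described below. The part of these marker differences in the results below was not tested.

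Of the 9 genes tested, 4 were differentially expressed, against 20.6% of all 12900 genes tested (adjusted p under 0.05 by the quasi-likelihood test of edgeR, with animal as a block and Benjamini-Hochberg adjustment over all genes). AGPAT1, AGPAT2 and AGPAT5 were upregulated in A clones, where 10.3% of all genes tested were higher, and LPIN1 was downregulated, where 10.3% were lower. A change of at least 2-fold was reached by AGPAT2 and LPIN1, against 5.76% of all genes tested, 3.95% higher and 1.81% lower. Without the 8 clones of animal 23 the number of these genes past the threshold was 0, where edgeR called 0.245% of all genes. On the same clones 4 had an unadjusted p under 0.05 and DESeq2 called 3 members, but no shares of all genes by these measures are given. The median log2 fold change (A against N) of the 9 genes was 0.20, beside -0.01 over all genes tested. No member separated all A from all N clones, a pattern seen in 0.318% of the genes tested.

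**Figure D1:**
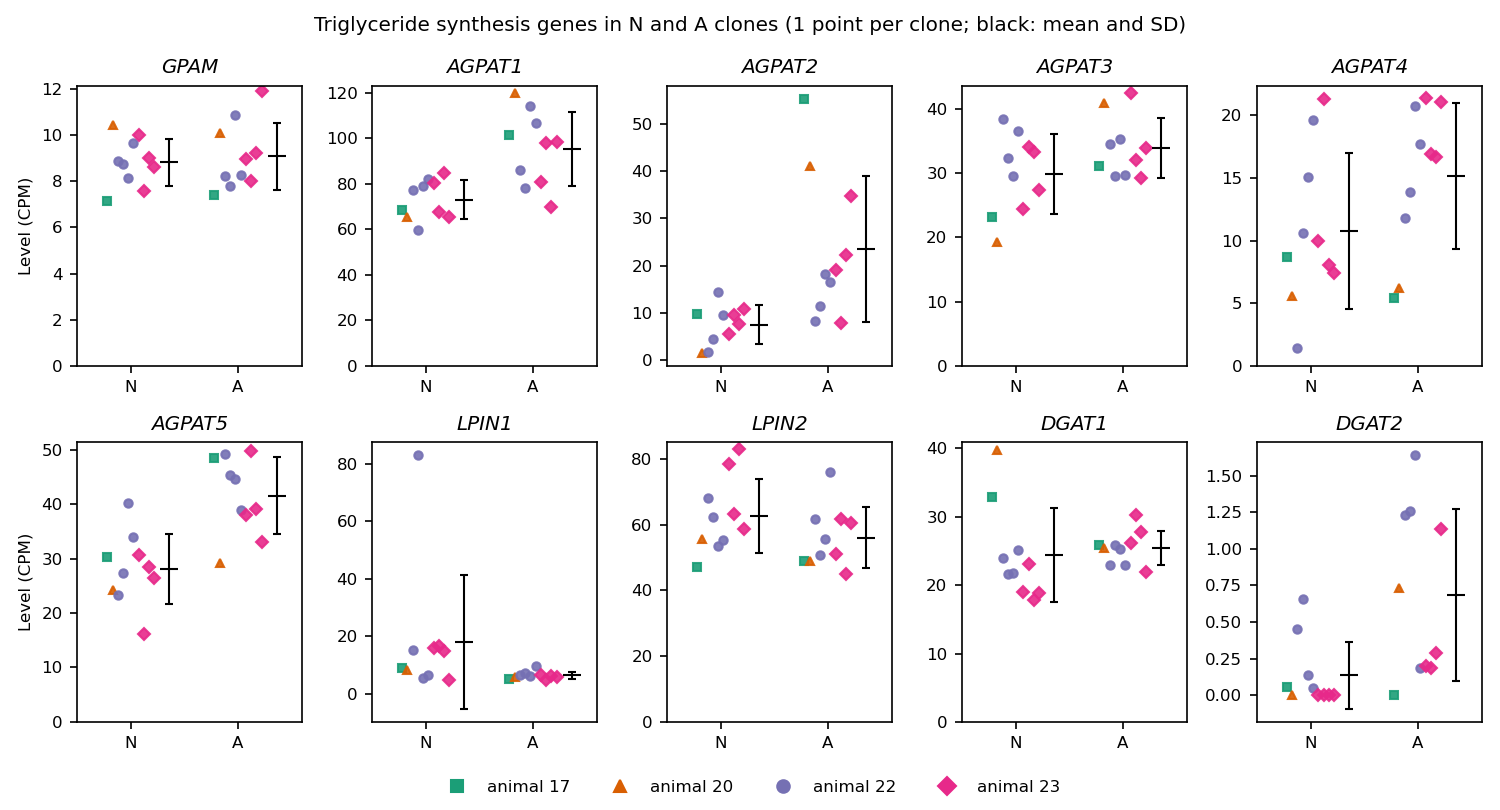
Level of each of the 10 genes in CPM, on a linear axis of its own, with 1 point per N or A clone, colour and shape by animal, and the mean and SD of each group in black. The A points of AGPAT1, AGPAT2 and AGPAT5 sit higher but overlap the N points, and the LPIN1 panel holds 1 N clone, 22-9, at 83.1 CPM, far above the next at 16.7 CPM.

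GPAM encodes the mitochondrial glycerol-3-phosphate acyltransferase, which catalyses the entry step. Its level was 7.13 CPM in the lowest N clone, 8.82 at the median and 10.4 in the highest, and 7.42, 8.63 and 11.9 CPM in A clones. The groups overlapped almost completely. The N clones averaged 8.82 ± 1.04 CPM and the A clones 9.09 ± 1.46 CPM (± SD here and below, 10 clones per group), and the log2 fold change of 0.04 did not pass the test (SE 0.0958, edgeR adjusted p = 0.773). Its 95% confidence interval, -0.16 to 0.25, excludes a 2-fold change in either direction.

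The 5 AGPAT genes encode enzymes that acylate lysophosphatidic acid or related lysophospholipids. AGPAT1 and AGPAT2 are the classical lysophosphatidic acid acyltransferases of the endoplasmic reticulum, and loss of AGPAT2 causes congenital generalized lipodystrophy in humans. The other members act on a wider range of lysophospholipids, and AGPAT5 is found in mitochondria.

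AGPAT2 showed the largest change among the tested members. Its level in N clones was 1.53 CPM at the lowest, 8.51 at the median and 14.3 at the highest, and in A clones 7.84, 18.6 and 55.3 CPM. The groups overlapped, with 7 A clones above every N clone and 5 N clones below every A clone. The highest values were those of A clones 17-57 (55.3 CPM), 20-106 (41.1 CPM) and 23-108 (34.8 CPM), and the lowest those of N clones 20-15 (1.53 CPM) and 22-5 (1.81 CPM). The mean rose from 7.48 ± 4.10 CPM in N to 23.5 ± 15.5 CPM in A clones, a fitted 2.83-fold change (log2 1.5, SE 0.421, edgeR adjusted p = 0.0202). The direction was the same in all 4 animals, with mean log2 differences of 2.5, 4.65, 1.15 and 1.18 in animals 17, 20, 22 and 23. It passed the test whichever single clone was left out, with log2 fold changes from 1.24 to 1.74, and without N clones 22-5 and 22-9 it was 1.35 (edgeR adjusted p = 0.0469).

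AGPAT5 changed less in size but with less scatter. Its level in N clones was 16.1, 28.0 and 40.2 CPM at the lowest, median and highest, and in A clones 29.3, 41.8 and 49.7 CPM. A total of 6 N clones lay below every A clone and 5 A clones above every N clone, N clone 22-17 being the one at 40.2 CPM. The mean rose from 28.1 ± 6.48 to 41.6 ± 7.02 CPM (1.47-fold; log2 0.56, SE 0.123, edgeR adjusted p = 0.00594). All 4 animals showed this direction, with log2 differences of 0.68, 0.27, 0.53 and 0.68, and no single clone changed the call.

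AGPAT1 spanned 59.8 to 84.8 CPM (median 72.7) over the N clones and 70.0 to 120.1 CPM (median 98.2) over the A clones. Again 7 A clones exceeded every N clone, while A clones 23-68, 22-16 and 23-14 fell inside the N range. The mean rose from 73.0 ± 8.69 to 95.4 ± 16.3 CPM (1.30-fold; log2 0.38, SE 0.103, edgeR adjusted p = 0.0175), with log2 differences of 0.57, 0.88, 0.36 and 0.21 in animals 17, 20, 22 and 23. Leaving out any 1 clone kept the call. In the ARS-UCD2.0 RefSeq annotation EGFL8 overlaps AGPAT1, and EGFL8 was nearly absent, at 0.136 ± 0.0772 CPM in N and 0.0971 ± 0.0509 CPM in A clones.

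AGPAT3 and AGPAT4 did not pass the test. AGPAT3 was at 19.3, 31.0 and 38.5 CPM in the lowest, median and highest N clone and at 29.2, 33.0 and 42.4 CPM in A clones (log2 0.20, SE 0.117, edgeR adjusted p = 0.234), and its log2 difference ranged from -0.08 in animal 22 to 1.08 in animal 20. The 95% interval of its log2 fold change, -0.05 to 0.44, leaves room for a change as large as that of AGPAT1. AGPAT4 was at 1.41, 9.31 and 21.3 CPM in N clones and at 5.38, 16.8 and 21.4 CPM in A clones (log2 0.42, SE 0.326, edgeR adjusted p = 0.371). Clones varied more in AGPAT4 than in AGPAT3, with log2 differences (A minus N) of 0.91 and 0.83 in animals 22 and 23, 0.15 in animal 20 and -0.68 in animal 17. Its interval, -0.27 to 1.10, does not exclude a 2-fold rise. N clone 22-5, at 1.41 CPM, stood below the next N clone at 5.59 CPM.

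**Figure D2:**
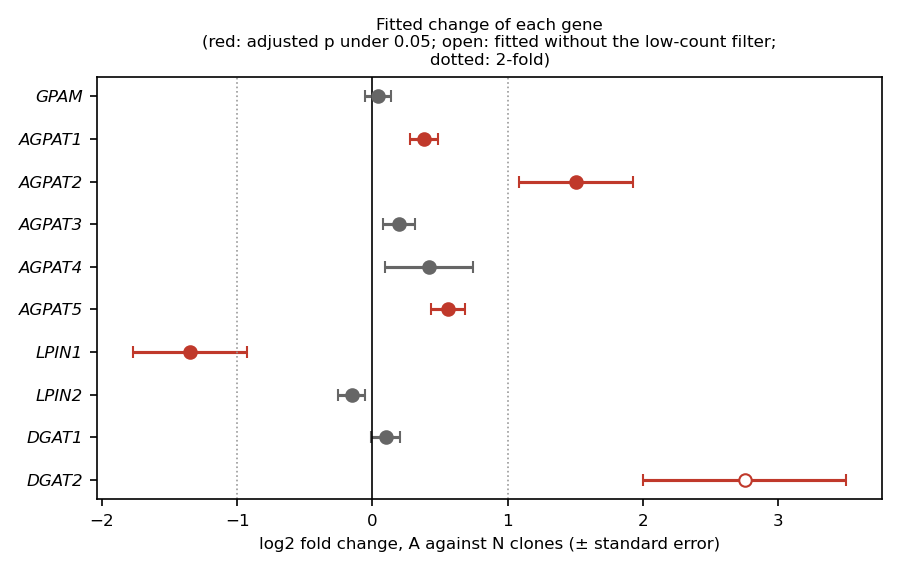
Log2 fold change of A against N clones (points) with its standard error (bars), in red for an adjusted p under 0.05, with dotted lines at a 2-fold change and DGAT2, open, from the fit without the low-count filter. AGPAT1, AGPAT2, AGPAT5 and DGAT2 are red and above zero and LPIN1 is red and below it, while GPAM lies at 0.04.

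Lipins are phosphatidate phosphatases that also act in the nucleus as transcriptional co-regulators, and LPIN1 is the main lipin of adipose tissue. LPIN1 went the opposite way to AGPAT1, AGPAT2 and AGPAT5. In N clones it was 4.86 CPM at the lowest, 12.0 at the median and 83.1 at the highest, and in A clones 4.78, 6.32 and 9.68 CPM. The A clones formed a narrow band. The N clones did not, with 5 of them (22-5, 22-9, 23-10, 23-22 and 23-23, between 15.0 and 83.1 CPM) above every A clone and the other 5, at 4.86 to 8.93 CPM, inside the A range.

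The mean of LPIN1 was 18.0 ± 23.3 CPM in N and 6.45 ± 1.32 CPM in A clones, and it fell by 1.35 on the log2 scale (0.393-fold, SE 0.421, edgeR adjusted p = 0.0327). It was lower in A clones of all 4 animals, with log2 differences of -0.74, -0.50, -0.99 and -1.0. N clone 22-9, with 1385 counts, carried much of the size. Without it the N mean was 10.8 ± 4.88 CPM (n = 9), the log2 fold change was -0.73 (SE 0.245) and the adjusted p was 0.0534 in edgeR's test. The call was also lost on leaving out N clones 23-10 or 23-22, or A clones 22-11, 22-16 or 22-27, where the log2 fold change stayed between -1.32 and -1.28. The adjusted p lay between 0.0515 and 0.0603 over these 6 fits of edgeR. Without both mesothelial-marker-high clones the log2 fold change was -0.61 (SE 0.258, edgeR adjusted p = 0.119), and limma-voom gave -0.85 (adjusted p = 0.143). The lower level in A clones was thus the same in direction in every fit, but its test depended on single clones.

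LPIN2, the lipin family member also prominent in liver and macrophages, did not pass the test. Its level was 47.0, 60.5 and 83.1 CPM in the lowest, median and highest N clone and 44.9, 53.3 and 76.0 CPM in A clones, with ranges that overlapped almost throughout (log2 -0.15, SE 0.102, edgeR adjusted p = 0.291, 95% interval -0.37 to 0.06).

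**Figure D3:**
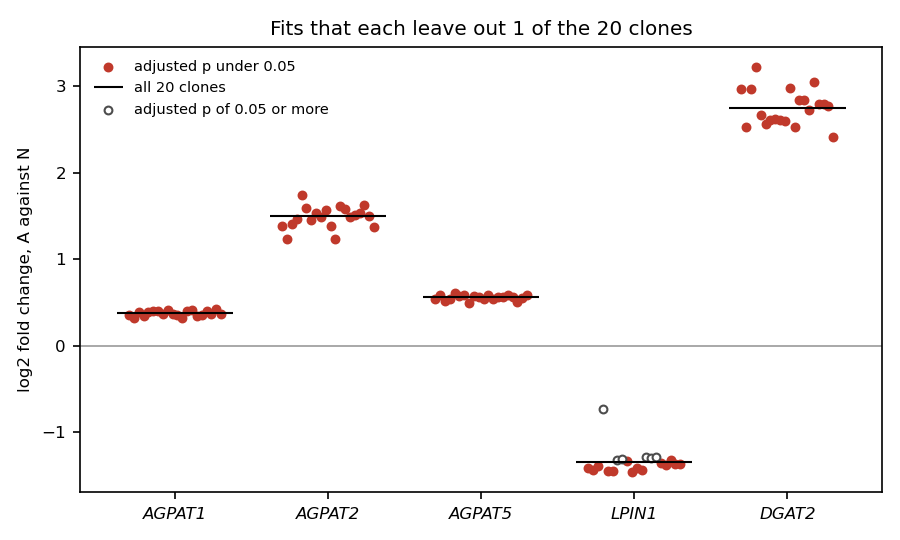
Log2 fold change of A against N clones for AGPAT1, AGPAT2, AGPAT5, LPIN1 and, fitted without the low-count filter, DGAT2, with 1 point for each of the 20 clones left out, the value with all clones as a black line, and open points for an adjusted p of 0.05 or more. LPIN1 has 6 open points and reaches -0.73 without N clone 22-9, and the other 4 genes have none.

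The DGAT enzymes complete the triacylglycerol molecule. DGAT1 is broadly expressed, while DGAT2 is tied to lipid droplet growth and is abundant in fat and liver. DGAT1 was at 17.8, 22.5 and 39.8 CPM in the lowest, median and highest N clone and at 21.9, 25.6 and 30.3 CPM in A clones. The N clones lay on both sides of the A clones, with 5 below every A clone and 2, 17-23 and 20-15, above every A clone. The log2 fold change was 0.10 (SE 0.109, edgeR adjusted p = 0.533, 95% interval -0.13 to 0.33). By animal the log2 difference was -0.35, -0.64, 0.07 and 0.42 in animals 17, 20, 22 and 23. HSF1 overlaps DGAT1 in the ARS-UCD2.0 annotation, and its own level was 61.7 ± 11.3 CPM in N and 58.9 ± 8.60 CPM in A clones.

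DGAT2 was barely detected in these undifferentiated cells. In N clones it had 1 count in 17-23, 8 in 22-5, 11 in 22-9, 3 in 22-17, 2 in 22-18 and 0 in the other 5, and in A clones it had 15 counts in 20-106, 34 in 22-11, 20 in 22-16, 25 in 22-27, 31 in 23-108, 3 or 4 in 4 more clones and 0 in 17-57. A count of 0 allows up to 3 counts, or 0.146 to 0.204 CPM in these libraries, counting error only. The counts above 11 were all in A clones, 5 of which exceeded every N clone, and the mean was 0.135 ± 0.231 CPM in N and 0.685 ± 0.588 CPM in A clones. When all 23383 genes with at least 1 count were fitted without the filter, where 11.8% of genes were called in either direction and 6.89% were higher, DGAT2 was 2.75 higher on the log2 scale in A clones (SE 0.750, edgeR adjusted p = 0.0235). It was called whichever single clone was left out. By animal its log2 difference was -0.61, 3.01, 1.46 and 2.12 in animals 17, 20, 22 and 23. The value of animal 17 is 0 counts against 1, within the limit of a count of 0. All N clones of animals 20 and 23 had 0 counts, so the sizes there depend on the prior count of 2. Without N clones 22-5 and 22-9 it remained past the threshold (edgeR adjusted p = 0.00766), with at most 3 counts in any N clone left, so no fold is given. It lost the call without the animal block (log2 2.32, edgeR adjusted p = 0.0765) and without animal 23 (log2 1.89, edgeR adjusted p = 0.315), and in 5 of 34 alternatives in all. These are levels of at most 1.64 CPM.

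**Figure D4:**
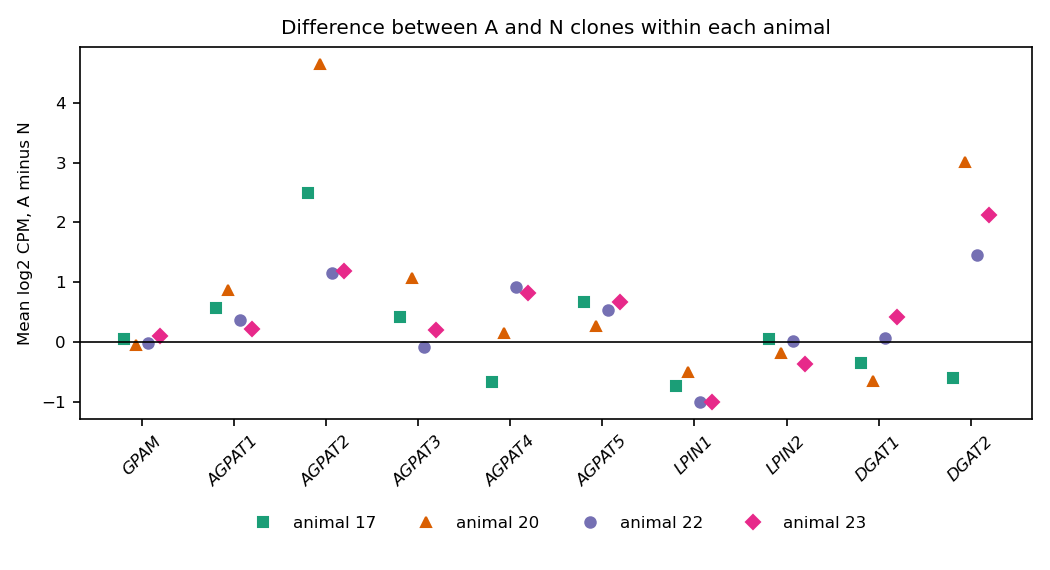
Difference in mean log2 CPM between A and N clones of each gene within animals 17, 20, 22 and 23, with 1 A and 1 N clone in animals 17 and 20 and 4 of each in animals 22 and 23. AGPAT1, AGPAT2 and AGPAT5 are above zero and LPIN1 below zero in all 4 animals, whereas AGPAT3, AGPAT4, GPAM, LPIN2 and DGAT1 take both signs. DGAT2 is below zero only in animal 17, where it had 0 counts in the A clone against 1 in the N clone.

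For animals 22 and 23, with 16 clones, the difference between the 2 fold changes was itself tested. None of the 9 genes passed after adjustment (0 by edgeR's interaction test, against 0.031% of all genes tested with edgeR, and 0 by DESeq2's). By either tool 1 gene had an unadjusted p under 0.05, against 9.06% of 12915 genes (edgeR) and 7.07% of 22891 unfiltered genes (DESeq2). This was DGAT1, whose log2 fold change was 0.36 greater in animal 23 than in animal 22 (SE 0.167, edgeR adjusted p = 0.549). The 95% intervals of this difference were wide for LPIN1 (-1.33 to 2.81), AGPAT2 (-1.12 to 2.09) and AGPAT4 (-1.35 to 1.87), and did not exclude a 2-fold difference between the animals. Those of AGPAT1, AGPAT3, AGPAT5, GPAM, LPIN2 and DGAT1 lay within a 2-fold difference. On simulated counts edgeR's interaction test recovered 7% of 2-fold and 56% of 4-fold differences.

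The members differed in how much they varied among clones of the same animal and type. The standard deviation of log2 CPM within animal and group was 0.146 for DGAT1, 0.187 for GPAM, 0.195 for AGPAT3, 0.220 for LPIN2, 0.224 for AGPAT1 and 0.305 for AGPAT5. It was 0.848 for AGPAT2, 0.932 for AGPAT4 and 0.998 for LPIN1. After animal and group means were removed, AGPAT2 and AGPAT4 were the pair that moved most closely together (Pearson r = 0.717, Spearman rho = 0.547 over the 16 clones that can vary), and r was 0.531 without the 2 clones farthest from the median. Over all 36 pairs r ranged from -0.473 to 0.717 with a median of 0.025, so the genes did not move as 1 block. Both AGPAT2 and AGPAT4 ran against the summed proliferation markers (r = -0.615 and -0.600) and against the summed mesothelial markers (r = -0.710 and -0.610), while LPIN1 ran with the latter (r = 0.461). N clones 22-5 and 22-9 had the highest mesothelial sums, and no values of these correlations without them are given. These correlations are descriptions over clones that share culture conditions and differ in library depth.

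The rest of the pathway was read from 4 lists of other enzymes and regulators, with 41 genes listed, 40 in the table and 37 tested. Of these, 10 passed the test, 6 higher and 4 lower in A clones, or 27.0% against 20.6% of all genes, with a median log2 fold change of 0.12. The lists hold genes for other triglyceride enzymes, acyl-CoA synthetases, seipin and the lipin phosphatase, and the phospholipid branch.

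Among other triglyceride enzymes 1 of 11 tested genes passed. This was PLPP1, a lipid phosphate phosphatase, at 65.6 ± 24.9 CPM in N and 104 ± 78.4 CPM in A clones (log2 0.51, SE 0.169, edgeR adjusted p = 0.0418), a call kept in 7 of 20 fits that left out 1 clone. GPAT3, the endoplasmic reticulum enzyme for the same entry step as GPAM, missed the threshold at 8.01 ± 6.18 CPM in N and 20.0 ± 12.7 CPM in A clones (log2 1.37, SE 0.517, edgeR adjusted p = 0.0678), and its close relative GPAT4 was at a log2 fold change of -0.16 (edgeR adjusted p = 0.102). MOGAT1, which makes diacylglycerol from monoacylglycerol, was at 0.611 ± 0.582 and 1.99 ± 1.47 CPM (log2 1.90, SE 0.669, edgeR adjusted p = 0.0527). LPIN3 was at a log2 fold change of 0.12 (edgeR adjusted p = 0.574).

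Acyl-CoA synthetases activate the fatty acids that the acyltransferases use, and 1 of 5 passed. ACSL6 was at 8.61 ± 13.3 CPM in N and 20.8 ± 31.1 CPM in A clones (log2 1.73, SE 0.487, edgeR adjusted p = 0.0207), with A clone 20-106 alone at 108 CPM, and its log2 difference (A minus N) was -1.09 in animal 17. Without N clones 22-5 and 22-9 its log2 fold change was 1.63 and the call was lost (edgeR adjusted p = 0.0538).

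Of the 4 genes for seipin and the lipin phosphatase, 2 fell in A clones. CTDNEP1 encodes the phosphatase that dephosphorylates lipins, and it fell from 67.4 ± 9.56 CPM in N to 47.6 ± 8.04 CPM in A clones (log2 -0.50, SE 0.105, edgeR adjusted p = 0.00485). It was lower in all 4 animals, 6 A clones lay below every N clone, and the call held in all 20 fits that left out 1 clone. Its regulatory partner CNEP1R1 was at a log2 fold change of 0.15 (edgeR adjusted p = 0.282). BSCL2 encodes seipin, a lipid droplet assembly protein whose loss also causes lipodystrophy, and it fell from 55.0 ± 9.52 to 43.2 ± 5.82 CPM (log2 -0.35, SE 0.109, edgeR adjusted p = 0.0318), with the call lost in 5 of those 20 fits.

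The phospholipid branch, which draws on phosphatidic acid and diacylglycerol, gave 6 of 17. Those that rose included the cytidine diphosphate-diacylglycerol synthase CDS2 (log2 0.46, edgeR adjusted p = 0.029), the phosphatidylinositol synthase CDIPT (log2 0.47, edgeR adjusted p = 0.0291) and the phosphatidylglycerol-phosphate synthase PGS1 (log2 0.37, edgeR adjusted p = 0.0106), while CDS1, the other synthase of the CDS2 step, did not pass (log2 1.53, edgeR adjusted p = 0.136). CHPT1, the cholinephosphotransferase, rose by log2 0.84 (edgeR adjusted p = 0.0238). PCYT2, of phosphatidylethanolamine synthesis, fell by 0.62 on the log2 scale (edgeR adjusted p = 0.0399), and DGKA, a diacylglycerol kinase that returns diacylglycerol to phosphatidic acid, fell by 0.58 (edgeR adjusted p = 0.0144). The calls of PGS1 and DGKA held in all 20 fits that left out 1 clone, that of CHPT1 in 19, those of CDS2 and CDIPT in 14 each and that of PCYT2 in 7. Without A clone 23-14, a fit for which no share of all genes is given, the number of pathway calls fell from 10 to 5. Without N clones 22-5 and 22-9 it fell to 4 of 37, where 14.2% of all genes tested were called, against 20.6% with all clones. CTDNEP1, PGS1 and DGKA were still past the threshold (edgeR adjusted p = 0.0199, 0.0132 and 0.0102), and CDS1 was the fourth (edgeR adjusted p = 0.0239). The calls of PLPP1, ACSL6, BSCL2, CDS2, CDIPT, CHPT1 and PCYT2 were lost, with edgeR adjusted p from 0.0538 (ACSL6) to 0.126 (PCYT2).

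**Figure D5:**
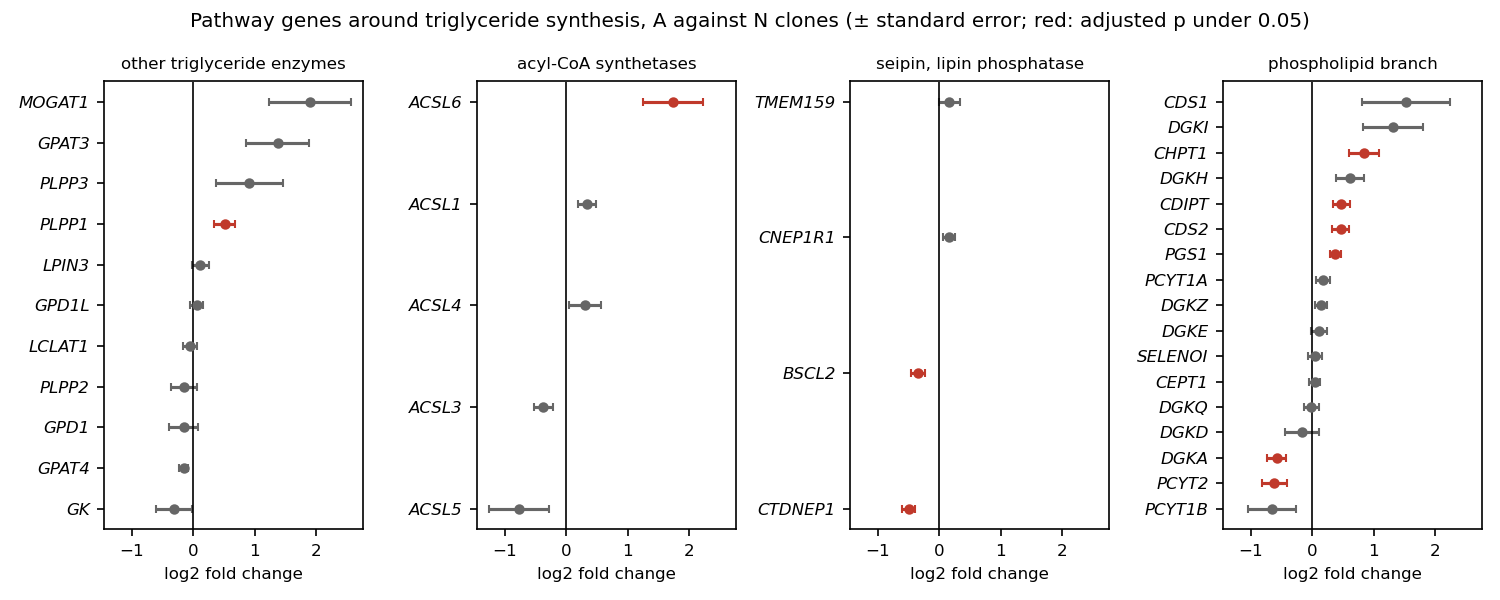
Log2 fold change of A against N clones for the 37 tested genes of the 4 pathway lists, with 1 panel per list, bars for the standard error and red for an adjusted p under 0.05. The 10 red points fall on both sides of zero, 6 above and 4 below, with ACSL6 at 1.73 the highest of them and PCYT2 at -0.62 the lowest.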

How the data were processed

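RNA sequencing libraries of 10 A and 10 N clones were used, grouped by the labelled genotype. Per the submitters' processing notes, bcl2fastq 2.20, Trimmomatic 0.36, STAR 2.5.2b and featureCounts of Subread 1.5.2 were used with build ARS-UCD1.2. The authors deposited raw counts of unique exonic reads per gene and clone. The kit was directional but the strand setting is not given in the sources used here, so genes that overlap others are uncertain. Besides AGPAT1 and DGAT1, these include GPAM, LPIN1, PLPP1, BSCL2, CTDNEP1, CDS2, PGS1, CHPT1 and PCYT2 in the ARS-UCD2.0 annotation. Levels of the genes that overlap these are not given. A single row without a name, with 0.113% to 0.333% of the counts of a clone, was left out. Libraries of a group differed by more than sampling noise.

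Counts were analysed with edgeR 4.0.16 in R 4.3.3 (filterByExpr on condition, which kept 12900 of the 23383 genes with a count, TMM, robust quasi-likelihood F test, animal as block, Benjamini-Hochberg adjustment over all genes tested). The standard error is the log2 fold change over the square root of F. CPM used TMM-scaled library sizes, and log2 CPM a prior count of 2. Pairing comes from the shared animals, where A and N clones deviated together from the group means (r = 0.253 in animal 17, 0.193 in 20, 0.241 in 22 and 0.440 in 23). Alternatives were no block, DESeq2 1.42.0 and its size factors, upper-quartile normalization, no filter, at least 10 counts in every clone, limma-voom (limma 3.58.1) with animal as a random effect, a non-robust fit, summed counts of each animal and condition, single animals, and each animal or clone left out. The fit without N clones 22-5 and 22-9, the alternatives of the count at 2-fold and those of the unfiltered fit of DGAT2 were added after seeing the data. Tests were checked on simulated counts with 200 changed genes. The edgeR test with the block recovered 69% of 2-fold and 87% of 4-fold changes, with 8 false calls. DESeq2 with the block recovered 79% and 97%, with 33 false calls. The interaction test of edgeR recovered 7% and 56%, with 3 false calls.

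All members were named, with every gene of the 4 pathway lists past an adjusted p under 0.05 and, for each called member, the 3 genes most correlated with it within animal and condition. Other pathway genes given with values, GPAT3, GPAT4, MOGAT1, LPIN3, CDS1 and CNEP1R1, were picked after their values were seen. The members and lists were chosen with earlier results of these data known. Gene neighbours came from a RefSeq table of another build, ARS-UCD2.0, so no coordinates are given. LDAF1 was taken as TMEM159, and MOGAT3 was not found under that symbol. At the depth of these libraries, precision was limited mainly by differences between clones, except for DGAT2.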

Additional observations from a re-analysis of the deposited data

Results flagged for a closer look

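For every group of 10 clones, the distance from an extreme clone to its nearest neighbour was expressed as a share of the whole range of the group and set against Dixon's 95% critical value. Of 40 groups examined, 3 exceeded it, where chance alone gives about 1 in 20, or 2. LPIN1 in N clones had a gap of 0.568 below its highest clone, 22-9. AGPAT4 in N clones had a gap of 0.499 above its lowest clone, 22-5. ACSL6 in A clones had a gap of 0.522 below its highest clone, 20-106. N clones 22-5 and 22-9 were also those with the highest summed mesothelial markers, at 6935 and 4706 CPM, and the part of this in the LPIN1 and AGPAT4 values was not tested.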

How the results depend on the processing

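With the replicate block left out, 4 members and 8 pathway genes were past the threshold, and the block ended the call of no tested member. The number of members past it was 4 with all clones and 3 to 4 when each clone was left out. It was 0 with counts summed per animal and condition, in animal 22 alone, in animal 23 alone and without animal 23. These were fits to 8, 8, 8 and 12 libraries, in which edgeR called 0%, 1.15%, 6.22% and 0.245% of all genes tested. In them 4, 1, 5 and 4 members had an unadjusted p under 0.05, and DESeq2 called 3, 0, 4 and 3. No shares of all genes at an unadjusted p or by DESeq2 are given for these fits, so these counts have no background beside them. At 2-fold the number was 2 with all clones and 1 to 2 when each clone was left out. It was 1 with limma-voom, without animal 22 and without N clones 22-5 and 22-9, and 0 with summed counts, in either animal alone and without animal 23. The 10 pathway calls became 5 to 12 when each clone was left out and 14 with DESeq2's Wald test with the block. They became 7 without animal 20, 7 without animal 22 and 5 in animal 23 alone. The shares of all genes called with DESeq2 and in the fits without 1 clone or without animal 20 or 22 are not given. Without N clones 22-5 and 22-9 the pathway calls became 4, where 14.2% of all genes tested were called. With summed counts, in animal 22 alone and without animal 23 they became 0, beside the all-gene shares given above. There 12, 4 and 8 had an unadjusted p under 0.05, and DESeq2 called 4, 0 and 0, again without all-gene shares by these measures. Values that turned sign, none of them called, were AGPAT3 (-0.0937), GPAM (-0.0187) and LPIN2 (0.0183) in animal 22 alone, GPAM without animal 23 (-0.00881) and over the fits without 1 clone (-0.0067 to 0.067), and DGAT1 with summed counts (-0.13) and without animal 23 (-0.12). LPIN1 lost its call in 12 of 37 alternatives and kept its direction in all, with log2 fold changes of -1.90 to -0.61. AGPAT1, AGPAT2 and AGPAT5 kept direction in all 37 and lost their calls in 5, 4 and 4. Depth limits DGAT2, with at most 34 counts in a clone.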

Other observations

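Genes outside the members were ranked by the correlation of their log2 CPM with each called member over the 20 clones, after the means of each animal and condition were removed. The closest to AGPAT2 were DSTN (r = 0.966), which encodes the actin-depolymerizing protein destrin, TMEM205 (r = 0.943) and PTN (r = 0.937), which encodes the growth factor pleiotrophin. None of these 3 genes passed the A against N test itself (log2 fold changes of 0.25, 0.47 and -0.18). For AGPAT1 they were MYO5A (r = 0.927), MAP3K3 (r = 0.911) and HDLBP (r = 0.907), and for AGPAT5 they were GPX7 (r = 0.912), PKIB (r = 0.911) and ADAMTS2 (r = 0.877). Of these 6, GPX7, which encodes a peroxidase of the endoplasmic reticulum, also rose in A clones (log2 0.85, edgeR adjusted p = 0.0168). For LPIN1 they were ZNF652 (r = 0.925), ZBTB44 (r = 0.916) and FBXO34 (r = 0.908), and without N clone 22-9 these were 0.857, 0.866 and 0.816. ZBTB44 fell by 0.49 on the log2 scale (edgeR adjusted p = 0.0271). The correlations are descriptions over clones that share library preparation, and the genes were picked as the closest among all tested.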
